A study of Homo sapiens with 8 samples.

Results

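Transcripts of 40 genes of interleukin signalling were examined in microglia kept alone or with other cells: 6 ligands, 17 receptor chains, 4 Janus kinases (JAK), 5 STAT transcription factors, and 8 genes of the SOCS family and PIM1. They were chosen by gene symbol among the 78899 Ensembl genes of the deposited count table, and where a symbol had several entries the entry with the most counts was used. A count was present for 39 of the 40, and 33 passed the filter on low counts and were tested. The microglia were derived from H1, an established human embryonic stem cell line that the labels also describe as induced pluripotent, and carried a GFP label by which they were sorted 2 weeks after plating. Mono-cultures (4 libraries) received the cytokines IL-34 at 100 ng/mL and M-CSF at 10 ng/mL. Tri-cultures (4 libraries) received no added cytokine and contained other cells, which the labels used here do not name, so the partner cells and the cytokine supplement cannot be told apart. All libraries came from the same line, and each group held 1 library from each of 4 batches.

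Interleukin receptors of this class have no kinase of their own. Their cytoplasmic tails hold Janus kinases, which are activated when a ligand brings the chains together and which phosphorylate STAT proteins. STAT dimers then enter the nucleus and switch on target genes, among them those of the SOCS proteins and CISH, which bind receptors or kinases and damp the signal. Microglia and other macrophages use the pathway to respond to IL-6, IL-10, IL-4 and IL-13, and many receptors share a chain: gp130 (IL6ST) for the IL-6 family, the common gamma chain (IL2RG) for IL-2, IL-4, IL-7, IL-15 and IL-21, and the common beta chain (CSF2RB) for IL-3 and GM-CSF.

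Promoter sequences of 4 members are shown, because the palindrome TTCNNNGAA, the letters that STAT dimers typically recognise, was searched in the 250 bases before the gene start. RefSeq (GRCh38.p14) gave a window for 34 of the 40 members. CISH held 4 matches, the most of any member, IL3RA held 2, and LIFR and IL15RA held 1 each. The first base of the IL3RA matches lies 199 and 179 bases before the gene start, and that of the LIFR match 165 bases before it; this RefSeq start lies inside the longer LIFR gene of GENCODE 29. SOCS1, which had the steepest decrease of the tested members, had no match in this window. The motif reads the same on both strands, and a match is a description of letters, not evidence of binding. It was present in 1850 of 27305 such windows of all genes (6.78%) and in 4 of 34 members (11.8%). The same palindrome with 4 instead of 3 free bases, associated with STAT6, was found in 5.35% of all windows and in those of IL16 and STAT5A. The windows are printed 5′ to 3′ along the gene's strand, with TTCNNNGAA matches in capitals. They are chr3:50611775-50612024 (minus strand) for CISH, chrX:1336535-1336784 (plus strand) for IL3RA, chr5:38595406-38595655 (minus strand) for LIFR and chr16:11256205-11256454 (minus strand) for SOCS1.
CISH: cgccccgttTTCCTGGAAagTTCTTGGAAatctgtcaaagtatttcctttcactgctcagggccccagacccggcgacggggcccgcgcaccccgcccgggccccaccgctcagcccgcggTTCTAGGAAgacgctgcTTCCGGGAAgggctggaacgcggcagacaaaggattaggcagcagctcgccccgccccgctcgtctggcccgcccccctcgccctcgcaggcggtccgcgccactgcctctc
IL3RA: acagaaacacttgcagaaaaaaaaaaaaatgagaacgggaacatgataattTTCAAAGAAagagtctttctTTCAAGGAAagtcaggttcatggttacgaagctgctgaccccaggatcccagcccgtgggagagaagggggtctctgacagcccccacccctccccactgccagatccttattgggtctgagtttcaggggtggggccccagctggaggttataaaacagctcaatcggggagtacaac
LIFR: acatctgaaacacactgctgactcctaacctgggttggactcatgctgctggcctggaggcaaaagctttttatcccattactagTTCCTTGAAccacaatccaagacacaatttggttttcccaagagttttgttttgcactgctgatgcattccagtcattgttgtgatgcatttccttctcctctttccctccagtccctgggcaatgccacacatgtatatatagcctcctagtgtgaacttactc
SOCS1: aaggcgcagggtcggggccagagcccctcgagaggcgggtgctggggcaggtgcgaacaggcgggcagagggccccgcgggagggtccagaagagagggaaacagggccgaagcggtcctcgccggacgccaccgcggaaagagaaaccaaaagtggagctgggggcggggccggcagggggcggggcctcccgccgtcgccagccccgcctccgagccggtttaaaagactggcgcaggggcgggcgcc

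The libraries held between 17037481 and 33363972 counts. The pan-leukocyte gene PTPRC stood at 620.1 ± 46.8 normalised CPM in mono-culture and 632 ± 61.9 in tri-culture (SD, n = 4 each), where normalised CPM are counts set to a common scaled library size. Summed over 10 microglia and macrophage markers, the level was 3359 to 3992 CPM in mono-culture and 4702 to 6057 in tri-culture. Among markers of other cells, the astrocyte, dendritic and oligodendrocyte sums did not overlap between the groups. Microglia kept alone also had astrocyte and oligodendrocyte marker counts, so these sums do not measure other cells alone. The sum of 12 astrocyte and neural progenitor markers was 312 to 367 CPM in mono-culture and 677 to 802 in tri-culture, with 9 genes higher and 1 lower of 12 tested, and AQP4, ALDH1L1, SOX2 and PTPRZ1 were at 0 in mono-culture. The sum of 12 dendritic cell markers was 78.8 to 102 CPM and 343 to 463, with 5 genes higher and 1 lower of 9 tested, FLT3 at 0 in mono-culture and XCR1 at 0 in tri-culture. The sum of 8 mesenchymal markers was 15.5 to 35.4 CPM in mono-culture, and 373, 18.3, 371 and 134 CPM in tri-culture libraries 1 to 4. The sum of 8 oligodendrocyte lineage markers was 154 to 185 CPM and 211 to 295, with MOG at 0 in both groups. The sum of 10 neuron markers overlapped between the groups (21.9 to 42.0 CPM and 11.99 to 32.7), but of 4 tested 2 were higher and 1 lower, and SNAP25, DCX, STMN2 and GRIA2 were at 0 in mono-culture and none in tri-culture. Lymphocyte and pluripotent marker sums also overlapped, at up to 4.16 and 0.459 CPM. The part of these cells in the differences below was not tested. In bulk samples, fewer cells of a type and less RNA per cell cannot be told apart.

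Of the 33 tested members, 10 were higher and 5 lower in tri-culture, that is 15 in either direction, against 26.9% of all 16249 tested genes (2261 genes or 13.9% higher and 2112 genes lower; edgeR quasi-likelihood, adjusted p under 0.05). The other 18 did not pass. The members were chosen with earlier results of these data known, so the share called is not independent of the data. The median log2 fold change was 0.19 over the tested members and 0.02 over all tested genes. Of the 33 tested members, 6 were called and changed by over 2-fold, against 13.1% of all tested genes. LIFR and SOCS2 entered the test only through their tri-culture libraries and SOCS1 only through mono-culture, so their calls follow in part from the filter. The CPM of the groups did not overlap for 13 of the 33 members (29.4% of all tested genes). All 13 were called, and for them the same direction in all 4 batch pairs follows from the lack of overlap. IL2RG and IL21R, called although their groups overlapped, also had the same direction in all 4 batch pairs. With library size as the only scaling, 12 members were higher and 4 lower; over all genes the calls were then 2829 higher and 1663 lower instead of 2261 and 2112, and the median over all genes moved to 0.12 on the log2 scale.

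**Figure D1:**
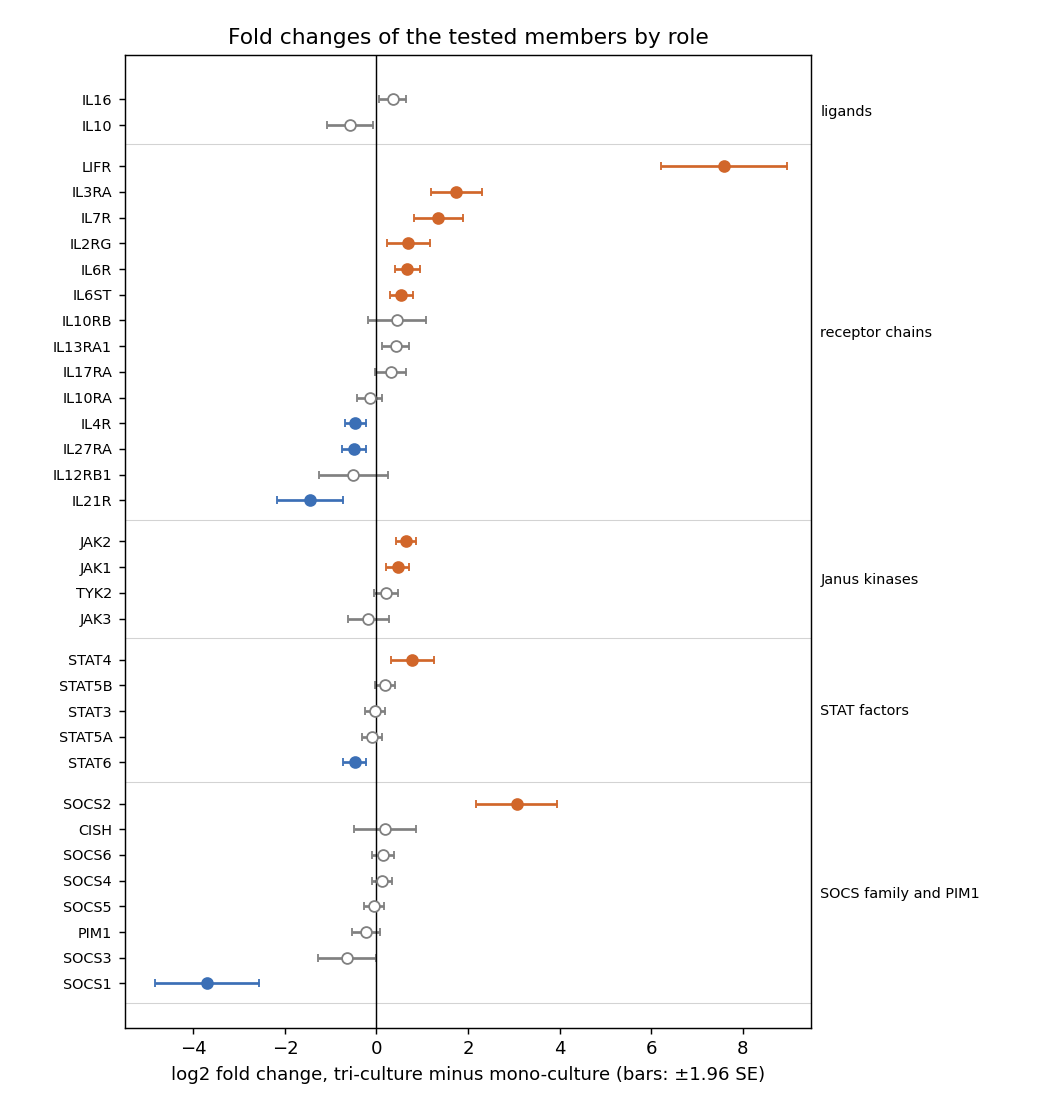
Log2 fold changes (tri-culture minus mono-culture, x axis) of the 33 tested members by role, with bars of approximate 95% intervals (normal approximation). Filled orange and blue points passed the threshold as higher and lower, and open grey points did not. The bars are narrower than the test implies, so a bar clear of the vertical line is not a call. LIFR and SOCS2 stand far to the right and SOCS1 far to the left, while most kinases, STAT genes and other SOCS genes lie within 1 log2 unit of zero.

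IL6R, IL6ST and LIFR, receptor chains of the IL-6 family, were higher in tri-culture, and the ligands themselves were near the limit of detection. IL27RA, which also pairs with gp130, was lower and is described further below. IL6R, the alpha chain that binds IL-6 (ENSG00000160712, chromosome 1, 154405193 to 154469450), stood at 451, 322, 331 and 319.9 CPM in mono-culture libraries 1 to 4 and at 546, 542, 612 and 575 CPM in tri-culture. Every tri-culture library lay above every mono-culture library, although mono-culture library 1 was closer to tri-culture than the other 3. The increase was 1.60-fold (log2 fold change 0.67 ± 0.14 SE, edgeR adjusted p = 0.00219). IL6ST, the signal-transducing chain gp130, stood at 189.5, 146, 149.6 and 207 CPM in mono-culture and at 239.99, 236, 275 and 254 CPM in tri-culture. The groups did not overlap, and the increase was 1.45-fold (log2 fold change 0.54 ± 0.13 SE, adjusted p = 0.00742). The IL6ST call was lost without both libraries of batch 3 (adjusted p = 0.0739).

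LIFR, the receptor chain for leukaemia inhibitory factor that pairs with gp130 (ENSG00000113594, chromosome 5, 38474963 to 38608354), was the member with the largest relative difference. It had 1 count over all mono-culture libraries, in library 2, and 265 counts in tri-culture. The level was 3.12, 1.79, 4.67 and 2.60 CPM in tri-culture libraries 1 to 4 and at most 0.0555 CPM in mono-culture. The ratio of counts, scaled for library size, was 295 (95% exact interval 52.4 to 11685, counting error only). The edgeR estimate was 193-fold (log2 fold change 7.59 ± 0.70 SE, edgeR adjusted p = 5.14e-06). Over the 20 alternative runs the log2 fold change ranged from 0.89 to 9.36, so its size is uncertain. Without mono-culture library 2 there was no count in mono-culture at all. LIFR remained a low transcript: its per-length signal in tri-culture was 0.884 ± 0.356, against 74.5 ± 5.45 for its partner IL6ST. LIFR-AS1, on the opposite strand, covers 5.30% of its exon bases.

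OSMR, the oncostatin M receptor chain that also pairs with gp130, was below the filter, at 0.0685, 0.278, 0.418 and 0.0600 CPM in mono-culture and 0.735, 0.285, 0.726 and 0.260 CPM in tri-culture. The groups overlapped. Tri-culture libraries 1 and 3 were the highest of the 4 for LIFR, for OSMR and for the mesenchymal marker sum. In tri-culture library 2, where that sum lay within the mono-culture range, LIFR was at 1.79 CPM, above every mono-culture library. The part of mesenchymal cells in the LIFR level was not tested. The astrocyte marker sum differed little among the tri-culture libraries (677 to 802 CPM), and the part of astrocytes in the LIFR level was not tested.

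**Figure D2:**
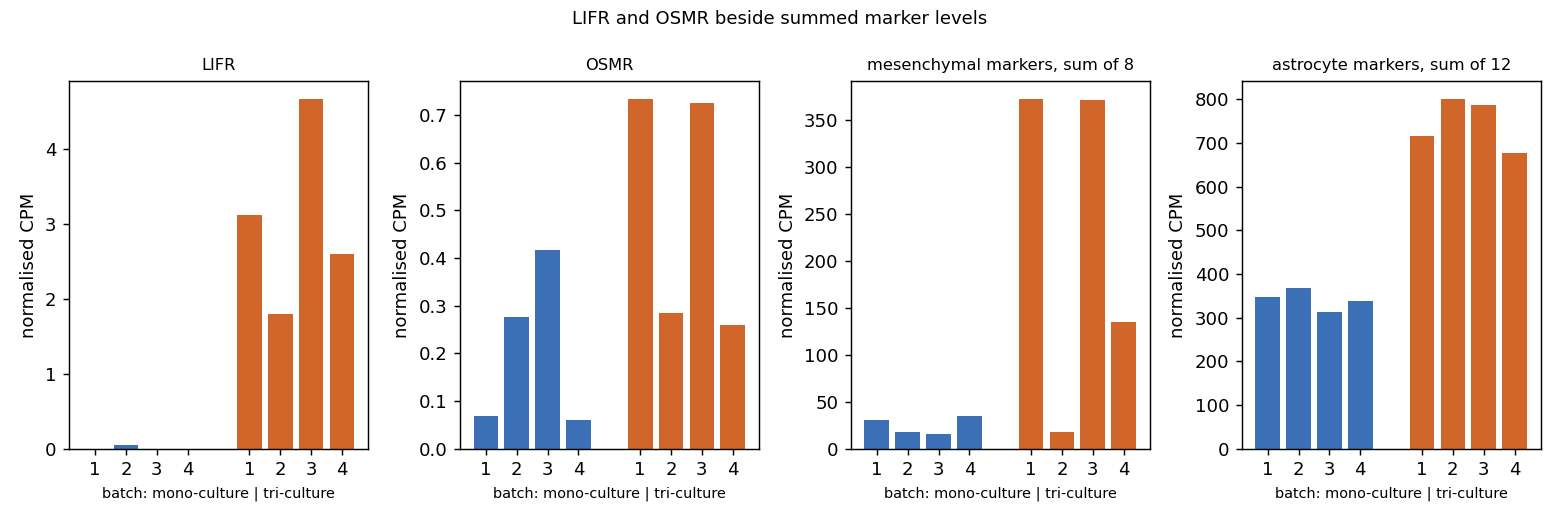
Normalised CPM (y axes) of LIFR, of OSMR and of the sums of 8 mesenchymal and 12 astrocyte markers in each library (batches 1 to 4; blue bars mono-culture, orange bars tri-culture). LIFR is at or near 0 in mono-culture and reaches 4.67 CPM in tri-culture library 3, and OSMR and the mesenchymal sum are highest in tri-culture libraries 1 and 3.

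The ligands of this family were scarce in both groups. IL6, a main inflammatory product of macrophages, had 21 counts over the mono-culture libraries and none in tri-culture, where it was at least 6.29-fold lower if 3 counts in the whole group are taken as the limit. The exact 95% interval of the count ratio, for counting error only, began at 4.68-fold. The IL6 counts were concentrated in mono-culture libraries 1 and 2 (0.445 and 0.278 CPM, against 0.0597 and 0.0600 in the others). OSM and LIF, the ligands of OSMR and LIFR, had 20 and 34 counts in mono-culture and 25 and 34 in tri-culture, too few for the test. STEAP1B and IL6-AS1, on the opposite strand, cover 20.7% of the exon bases of IL6, and strand use in counting is not given in the sources used here.

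Among chains that work with the common gamma chain, IL7R was higher and IL4R and IL21R were lower. IL7R, which binds IL-7 and is best known from lymphocytes (ENSG00000168685, chromosome 5, 35852695 to 35879603), stood at 6.33, 5.72, 12.1 and 8.10 CPM in mono-culture and 16.6, 13.8, 29.9 and 22.8 CPM in tri-culture. The groups did not overlap, and batches 3 and 4 were above batches 1 and 2 in both groups. It rose 2.56-fold (log2 fold change 1.35 ± 0.27 SE, edgeR adjusted p = 0.00226). Summed lymphocyte markers overlapped between the groups: they were at 2.39 to 4.16 CPM in mono-culture and 2.81 to 3.67 in tri-culture, CD3D, CD3E and GNLY were at 0 in mono-culture, and GNLY and MS4A1 in tri-culture.

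IL2RG, the common gamma chain itself, stood at 4.00, 7.55, 3.88 and 4.32 CPM in mono-culture and 6.201, 8.03, 8.12 and 9.46 CPM in tri-culture. The groups overlapped through mono-culture library 2, and the call was marginal (1.62-fold, adjusted p = 0.0499). It held in 8 of 20 alternative runs. Leaving out mono-culture library 1, 3 or 4 ended it (adjusted p = 0.128, 0.131 and 0.129), as did leaving out tri-culture library 2, 3 or 4 (0.0876, 0.0918 and 0.116). A further annotated gene on the same strand covers 50.8% of the IL2RG exon bases, so its count is uncertain.

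IL4R, the chain that binds IL-4 (ENSG00000077238, chromosome 16, 27313668 to 27364778), stood at 132, 152, 139 and 163 CPM in mono-culture and 109.5, 89.8, 110.1 and 116 CPM in tri-culture. All tri-culture libraries lay below all mono-culture libraries, and the decrease was modest (log2 fold change -0.46 ± 0.11 SE, adjusted p = 0.00836). IL13RA1, which joins IL4R to form the receptor for IL-13 on macrophages, stood at 637, 549, 469.6 and 492 CPM in mono-culture and 866, 749, 629 and 629 CPM in tri-culture. The groups overlapped slightly and it just missed the threshold (log2 fold change 0.42 ± 0.15 SE, adjusted p = 0.0517). A fit with a term for the batch called IL13RA1 higher (adjusted p = 0.0115), as did fits without mono-culture library 1 (0.0323) or tri-culture library 3 (0.0479) or 4 (0.0425).

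IL21R, the IL-21 receptor chain, was lower but variable, at 16.4, 10.6, 4.50 and 19.4 CPM in mono-culture and 3.63, 3.96, 4.40 and 6.44 CPM in tri-culture. Mono-culture library 3 lay within the tri-culture range, so the groups overlapped. The log2 fold change was -1.46 ± 0.37 SE (adjusted p = 0.00948), and it did not pass on the deposited per-length signal (adjusted p = 0.0745) or without both libraries of batch 1 (0.0637). IL21R-AS1 covers 23.3% of its exon bases on the opposite strand. IL2RA, the inducible IL-2 receptor alpha chain, had no count in any library, which allows up to 0.0308 CPM over the mono-culture libraries and 0.0342 over the tri-culture libraries. IL15, a growth factor of lymphocytes, and its receptor chain IL15RA were below the filter, with 24 and 52 counts in mono-culture and 18 and 15 in tri-culture.

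IL3RA, the alpha chain of the IL-3 receptor, rose 3.36-fold (log2 fold change 1.75 ± 0.28 SE, edgeR adjusted p = 0.000426). It stood at 4.69, 2.94, 4.33 and 2.28 CPM in mono-culture and 9.65, 7.95, 15.9 and 15.1 CPM in tri-culture, without overlap and with batches 3 and 4 highest in tri-culture. The gene lies in the region shared by the X and Y chromosomes and has 2 Ensembl entries with similar counts (1420 and 1289 over all libraries), so its absolute level is uncertain. Its partner CSF2RB, the common beta chain, named here after its values were seen, stood at 162 ± 27.2 and 161 ± 19.7 CPM (adjusted p = 0.966). CSF2RA, the GM-CSF alpha chain that uses the same partner, was 2.82-fold higher, at 80.4 ± 7.45 and 227 ± 15.5 CPM (adjusted p = 6.78e-07). It also has 2 Ensembl entries, so its absolute level is uncertain as well. The dendritic marker sum was also higher in tri-culture, at 412, 463, 343 and 383 CPM in libraries 1 to 4, and was thus lowest in libraries 3 and 4, where IL3RA was highest. The part of dendritic cells in the IL3RA difference was not tested.

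Receptors of the IL-10, IL-12, IL-17 and IL-27 families mostly missed the threshold. IL10RA, the ligand-binding chain for the anti-inflammatory cytokine IL-10, stood at 433, 353, 355 and 383 CPM in mono-culture and 412, 276, 334 and 354 CPM in tri-culture (95% interval of the log2 fold change -0.42 to 0.12, adjusted p = 0.480). The groups overlapped, as they did for its partner IL10RB, at 5.05 ± 2.18 and 6.95 ± 2.51 CPM (adjusted p = 0.350), whose exon bases are covered to 38.1% by the readthrough gene IFNAR2-IL10RB. IL10 itself was at 5.14 ± 0.919 and 3.46 ± 1.08 CPM, with a log2 fold change of -0.57 ± 0.26 SE that did not pass (adjusted p = 0.126). IL27RA, the IL-27 receptor chain that pairs with gp130, stood at 28.1, 29.1, 25.6 and 21.5 CPM in mono-culture and 20.7, 19.6, 17.4 and 16.7 CPM in tri-culture. Each tri-culture library was below each mono-culture library (log2 fold change -0.49 ± 0.13 SE, adjusted p = 0.0159). It no longer passed without tri-culture library 3 (0.0513) or without both libraries of batch 2 (0.0670) or 3 (0.0852).

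IL12RB1, the chain shared by the IL-12 and IL-23 receptors, was at 2.34 ± 1.22 and 1.68 ± 0.383 CPM (adjusted p = 0.383). IL12RB2, its partner for IL-12, was 11.3-fold lower, at 4.44 ± 0.645 and 0.393 ± 0.111 CPM (log2 fold change -3.49 ± 0.31 SE, adjusted p = 3.57e-06). EBI3, a subunit of the cytokines IL-27 and IL-35, was also lower, at 20.03 ± 2.43 and 9.54 ± 2.69 CPM (adjusted p = 0.00116). IL17RA, the common chain of the IL-17 receptors, which signals without JAK kinases, stood at 182 ± 10.2 CPM in mono-culture and at 211, 147, 264 and 281 CPM in tri-culture libraries 1 to 4. Tri-culture library 2 was below all mono-culture libraries and the other 3 above them. IL17RA did not pass (adjusted p = 0.211), but was called higher without tri-culture library 2 (0.0138). IL16, a leukocyte chemoattractant made as a larger precursor, was at 41.9 ± 5.66 and 53.6 ± 10.8 CPM (adjusted p = 0.103), and was called higher with the batch as a block (0.0431). Other genes on the opposite strand cover 36.6% of its exon bases.

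**Figure D3:**
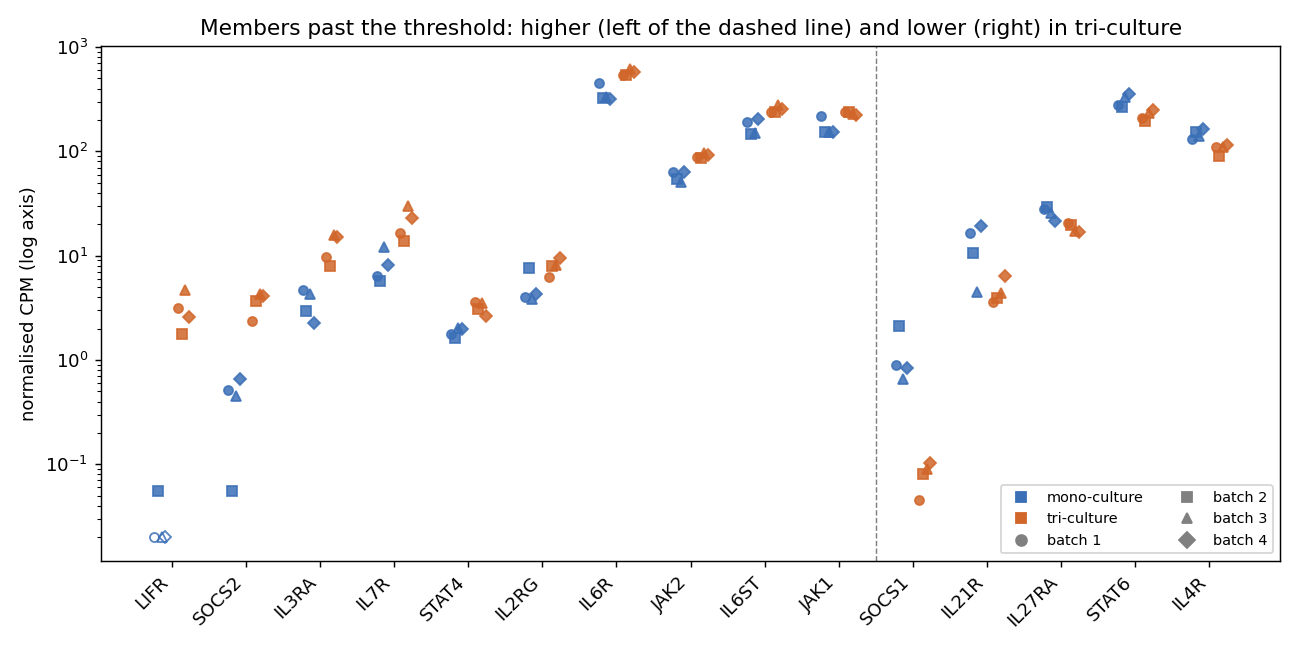
Normalised CPM (log y axis) of the 15 called members in each library; blue mono-culture, orange tri-culture, marker shapes give the batch, and open markers at 0.02 stand for libraries with no count. The 10 members left of the dashed line were higher in tri-culture and the 5 to the right were lower; the groups overlap for IL2RG and IL21R.

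Levels of different genes were compared on the deposited per-length signal, a TPM-like value. IL13RA1 was the most abundant receptor chain of the list in both groups, at 387 ± 56.5 in mono-culture and 520.5 ± 81.9 in tri-culture, followed by IL6R (177 ± 33.8 and 285 ± 17.01) and IL10RA (155 ± 17.1 and 141 ± 22.1). IL6R and IL10RA were within their spread of each other in mono-culture but not in tri-culture. IL17RA, IL6ST, IL4R and IL27RA followed in that order in both groups, between 87.5 and 21.6, and all other chains were at 13.8 or below. IL17RA and IL6ST were within their spread of each other in tri-culture, and IL6ST and IL4R in mono-culture. Ratios within a library show how chains that work together compared. The ratio of IL6R to IL6ST was 2.62 to 4.03 in mono-culture and 3.76 to 3.88 in tri-culture, so the ranges overlapped. The ratio of IL4R to IL13RA1 was 0.0937 to 0.151 in mono-culture and 0.0545 to 0.0834 in tri-culture, without overlap. The ratio of IL3RA to CSF2RB was 0.0246 to 0.0469 and 0.0823 to 0.166, also without overlap, although the absolute level of IL3RA is uncertain. The ratio of IL7R to IL2RG, the pair that binds IL-7, ranged from 0.341 to 1.41 and from 0.776 to 1.66.

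**Figure D4:**
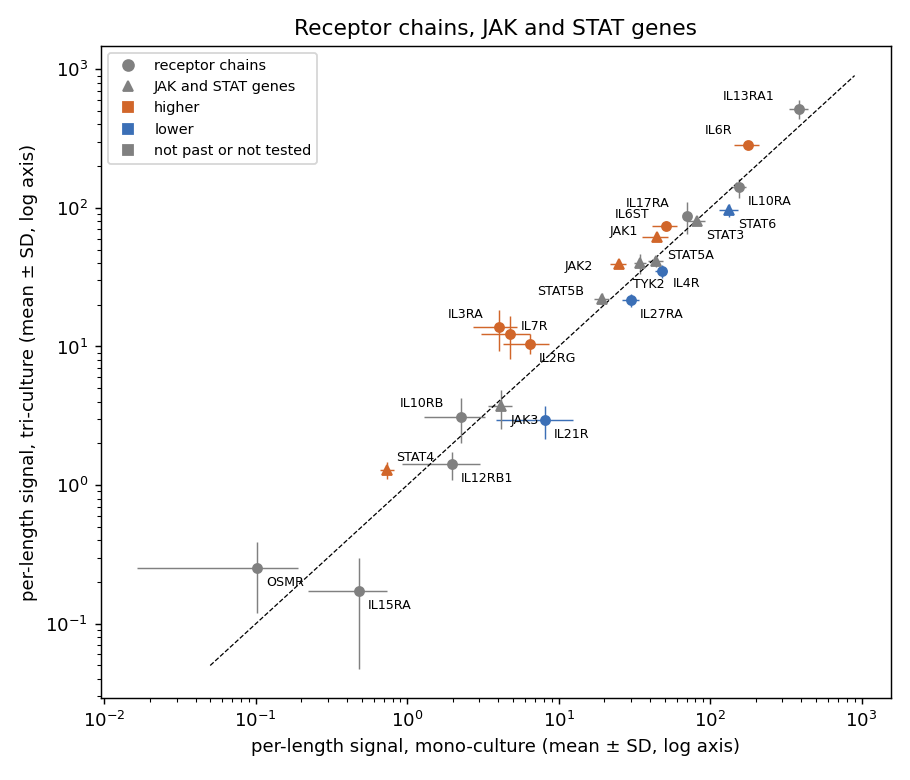
Per-length signal of receptor chains (circles) and of JAK and STAT genes (triangles) in mono-culture (x) and tri-culture (y), mean ± SD of 4 libraries on log axes, with the dashed line marking equal levels; IL2RA and LIFR are left out because they are at or near 0 in mono-culture. IL13RA1 and IL6R lie at the top in both groups, and IL3RA and IL7R lie farthest above the line among the called receptor chains drawn.

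Of the 4 Janus kinases, JAK1 and JAK2 were higher in tri-culture. JAK2, the kinase used by the common beta chain and by gp130 (ENSG00000096968, chromosome 9, 4984390 to 5128183), stood at 63.5, 54.6, 50.5 and 63.1 CPM in mono-culture and 88.7, 86.2, 95.6 and 91.7 CPM in tri-culture. The groups were well apart and the spread within each was small (1.56-fold, log2 fold change 0.64 ± 0.11 SE, edgeR adjusted p = 0.000549). JAK1, used by gp130 and by partners of the gamma chain, stood at 216, 152, 153 and 154 CPM in mono-culture and 236, 239.997, 230.4 and 225 CPM in tri-culture. The groups did not overlap, but mono-culture library 1 stood apart from the other 3 of its group (log2 fold change 0.47 ± 0.13 SE, adjusted p = 0.0157). JAK1 no longer passed when mono-culture library 2, 3 or 4 was left out (adjusted p = 0.0586, 0.0591 and 0.0677), or both libraries of batch 2, 3 or 4 (0.0926, 0.0892 and 0.0829). JAK3, the partner of the gamma chain, was at 9.76 ± 1.79 and 8.62 ± 2.80 CPM, and TYK2, used by IL10RB, IL12RB1 and IL13RA1, at 82.2 ± 8.68 and 94.9 ± 16.1 CPM. Neither passed (adjusted p = 0.620 and 0.298).

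The per-length signal of the 4 kinases summed to 108 ± 8.84 in mono-culture and 145 ± 7.10 in tri-culture. JAK1 held the largest share in both groups (40.8% ± 4.94 and 42.7% ± 3.49) and JAK3 the smallest (3.87% ± 0.635 and 2.55% ± 0.704). TYK2 and JAK2 lay between them. TYK2 was above JAK2 by more than their spread in mono-culture (34.6 ± 3.38 and 24.9 ± 3.00), and within it in tri-culture (40.2 ± 6.602 and 39.2 ± 1.82).

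Of the 5 STAT genes, STAT6 was lower in tri-culture and STAT4, a scarce transcript here, was higher; the other 3 did not pass. STAT6, the factor of the IL-4 and IL-13 response (ENSG00000166888, chromosome 12, 57095408 to 57132139), stood at 281, 267, 331 and 358 CPM in mono-culture and 210.3, 194, 232 and 251 CPM in tri-culture. The groups did not overlap, and the log2 fold change was -0.48 ± 0.13 SE (adjusted p = 0.0145). The call was lost with library size as the only scaling (adjusted p = 0.0774), without mono-culture library 4 (0.0506) and without both libraries of batch 3 (0.0740). STAT4, the factor of the IL-12 response, stood at 1.78, 1.61, 2.03 and 1.98 CPM in mono-culture and 3.58, 3.06, 3.49 and 2.65 CPM in tri-culture. The groups did not overlap (log2 fold change 0.79 ± 0.24 SE, adjusted p = 0.0290). STAT4 kept its call in 7 of 20 alternative runs. Leaving out mono-culture library 1, 2 or 4 ended the call (adjusted p = 0.0598, 0.0686 and 0.0535), as did leaving out tri-culture library 1, 2 or 3 (0.0630, 0.0523 and 0.0849).

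STAT3, the factor downstream of IL-6 and IL-10, stood at 306, 245, 239.9 and 243 CPM in mono-culture and 269, 247, 251 and 244 CPM in tri-culture. The 95% interval of its log2 fold change was -0.26 to 0.19 (adjusted p = 0.869), so a change of 1.5-fold lay outside it. STAT5A and STAT5B, the closely related factors of the IL-3, GM-CSF and IL-7 responses, stood at 79.5 ± 9.36 and 68.6 ± 7.23 CPM in mono-culture and 74.1 ± 6.11 and 78.2 ± 7.40 CPM in tri-culture (adjusted p = 0.568 and 0.254). Their signal ratio (STAT5B to STAT5A), chosen after values were seen, was 0.404 to 0.454 in mono-culture and 0.523 to 0.554 in tri-culture, without overlap. The 2 genes are similar in sequence, so reads can be shared between them. Of the other ratios taken, those of JAK2 to JAK1, STAT6 to STAT3 and IL10RA to IL10RB overlapped between the groups, and that of SOCS2 to SOCS1 did not. How often such ratios separate over all gene pairs was not tested. STAT6 and STAT3 were the most abundant of the 5 STAT genes per length in both groups, STAT6 above STAT3 by more than their spread in mono-culture (134 ± 19.1 and 81.4 ± 10.9) and less so in tri-culture (96.4 ± 10.4 and 80.0 ± 3.51).

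Within the SOCS family, SOCS2 rose and SOCS1 fell while the abundant members did not pass. SOCS2, a feedback inhibitor of growth hormone and STAT5 signalling (ENSG00000120833, chromosome 12, 93569814 to 93583487), stood at 0.513, 0.0555, 0.447 and 0.660 CPM in mono-culture and 2.34, 3.67, 4.26 and 4.10 CPM in tri-culture. All tri-culture libraries were well above all mono-culture libraries, at 42 and 314 counts in all (8.38-fold, log2 fold change 3.07 ± 0.45 SE, edgeR adjusted p = 0.000210). SOCS1, the inhibitor that acts directly on Janus kinases and restrains interferon signalling (ENSG00000185338, chromosome 16, 11254405 to 11256200), stood at 0.890, 2.11, 0.656 and 0.840 CPM in mono-culture and 0.0459, 0.0816, 0.0907 and 0.104 CPM in tri-culture. It had 100 counts in mono-culture and 7 in tri-culture, a 13.01-fold decrease (log2 fold change -3.70 ± 0.58 SE, adjusted p = 0.000368). The tri-culture libraries held only 1, 2, 2 and 2 SOCS1 counts, so its level there is near the counting limit.

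SOCS3, the STAT3-induced inhibitor that binds gp130, stood at 1.85, 4.72, 5.43 and 5.10 CPM in mono-culture and 2.53, 3.30, 2.86 and 2.13 CPM in tri-culture. Mono-culture library 1 was below the tri-culture libraries and the other 3 above them (log2 fold change -0.65 ± 0.32 SE, adjusted p = 0.164). Without mono-culture library 1 SOCS3 was called lower (adjusted p = 0.0156). CISH, the STAT5-induced inhibitor whose promoter window held 4 palindromes, stood at 3.29, 1.499, 1.37 and 2.40 CPM in mono-culture and 3.31, 1.79, 2.81 and 1.87 CPM in tri-culture, with full overlap (95% interval of the log2 fold change -0.49 to 0.87, adjusted p = 0.745). PIM1, a kinase induced by STAT3 and STAT5, was at 23.8 ± 4.44 and 20.3 ± 2.41 CPM (adjusted p = 0.307).

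SOCS4, SOCS5 and SOCS6, which act mainly on growth factor receptors, held nearly all of the family's signal. SOCS6 alone made up 63.3% ± 2.00 of it in mono-culture and 65.0% ± 2.96 in tri-culture, whereas SOCS1 and SOCS2 made up 0.487% ± 0.332 and 0.185% ± 0.109 in mono-culture and 0.0314% ± 0.00921 and 1.53% ± 0.313 in tri-culture. The intervals of the log2 fold changes were -0.11 to 0.34 for SOCS4, -0.28 to 0.17 for SOCS5 and -0.10 to 0.38 for SOCS6 (adjusted p = 0.509, 0.769 and 0.465).

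**Figure D5:**
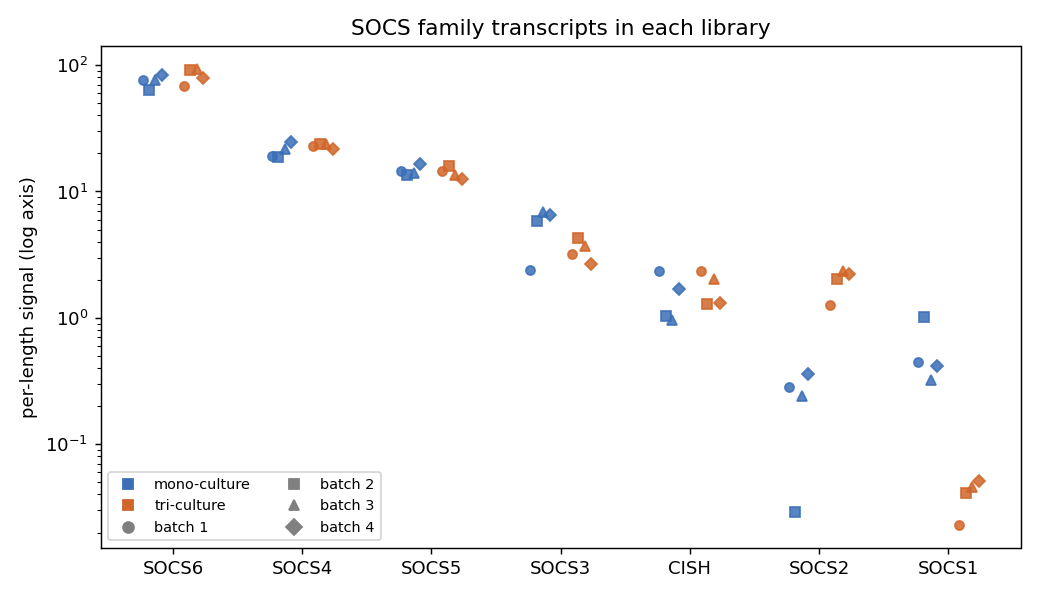
Per-length signal (log y axis) of the 7 SOCS family genes in each library; blue mono-culture, orange tri-culture, marker shapes give the batch. SOCS6, SOCS4 and SOCS5 overlap between the groups at the top of the range, while SOCS2 and SOCS1 exchange places in the lower range.

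Of 117 other genes of the pathway, in lists of receptors, ligands, signal components and response genes, 75 were tested. Of these 75, 9 were higher and 26 lower, that is 35 in all, beside 26.9% of all tested genes. With library size as the only scaling, 12 were higher and 19 lower. These lists too were chosen with earlier results known, so the comparison with all genes is not independent of the data. Among 17 tested receptor chains, 6 were higher and 2 lower, including CSF2RA and IL12RB2 above and CSF3R, the G-CSF receptor, at 1.60 ± 0.764 and 15.3 ± 4.70 CPM (adjusted p = 7.75e-06). Of 6 tested ligands only EBI3 passed. Among 20 signal components, 1 was higher and 6 lower, a split that became 3 and 3 with library size as the only scaling. The adaptor SH2B3, which restrains JAK2 signalling, was 1.58-fold lower (381 ± 22.1 against 241 ± 29.9 CPM, adjusted p = 0.00104). The docking protein GAB2 fell from 254 ± 29.7 to 165 ± 17.2 CPM and the kinase PIM3 from 34.3 ± 7.99 to 20.9 ± 3.01 CPM (adjusted p = 0.00171 and 0.00600).

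In each of 3 lists of genes known to respond to these pathways, most of the called genes were lower. Over all tested genes 2112 were lower and 2261 higher (26.9% in either direction). The lists were chosen with earlier results of these data known, so their tallies are not independent support for a direction of the responses. Of 11 tested genes of the IL-4 and STAT6 response, 6 were lower and 1 higher, and the median of the log2 fold changes was -1.24. The transglutaminase TGM2 fell from 18.4 ± 4.42 to 4.36 ± 0.766 CPM (adjusted p = 8.28e-06) and MRC1, the mannose receptor, was 2.99-fold lower (adjusted p = 0.000311), whereas the lectin CLEC10A, also a dendritic marker, was 9.52-fold higher (adjusted p = 2.93e-06). Of 14 genes of the IL-10 and STAT3 response, 7 were lower and 1 higher, with a median of -0.42. With library size as the only scaling, 3 of these were lower and 1 higher.

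In that list CD163, the haemoglobin scavenger receptor, fell from 1548 ± 284 to 391 ± 81.3 CPM, HIF1A, the oxygen-sensing factor, from 261 ± 25.2 to 167 ± 19.2 CPM, and the repressor ETV3 from 104 ± 10.96 to 70.3 ± 3.10 CPM (adjusted p = 6.50e-06, 0.00123 and 0.00131). Of 7 tested genes of the STAT5 response, 4 were lower and none higher (1 higher with library size as the only scaling). They included the cyclin CCND1, from 156 ± 20.5 to 53.6 ± 9.29 CPM, the survival factor BCL2, from 45.4 ± 4.63 to 18.9 ± 3.76 CPM, and MYC, from 33.5 ± 1.66 to 21.8 ± 2.99 CPM (adjusted p = 4.77e-06, 4.60e-05 and 0.00219). The members SOCS2, CISH and PIM1, also tied to STAT5 above, were counted apart from this list. Of these, SOCS2 was 8.38-fold higher in tri-culture, and CISH and PIM1 did not pass. Many genes of these response lists also respond to other signals. The astrocyte and dendritic marker sums were higher in the same libraries, and their part was not tested.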

How the data were processed

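RNA of sorted microglia was sequenced in 8 libraries. The authors deposited a count table of whole reads per gene. The submitters' processing notes name HISAT2 2.1.0, featureCounts 2.12.3 and the build GRCh38. The annotation release and strand use were not given in the sources used here. The second deposited table holds a per-length signal, named as TPM by the authors, whose library totals were 865863 to 1138851, so its scaling is uncertain; it served only to compare levels between genes and as an alternative.

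Genes were filtered with filterByExpr (minimum count 10, total 15), normalised by TMM and tested in edgeR 4.0.16 under R 4.3.3 (quasi-likelihood, robust, group only, Benjamini-Hochberg over 16249 genes, threshold 0.05). Normalised CPM use the TMM-scaled library size. SE is the absolute log2 fold change over the square root of F, and 95% intervals follow from a normal approximation. This makes them narrower than the test implies: that of SOCS3 was -1.28 to -0.02, with an unadjusted edgeR p of 0.0645. Floors are 3 counts over a group, for counting error only. Coordinates and exon overlaps are from GENCODE 29.

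Members, lists and promoter motifs were chosen with earlier results of these data known, and ratios between genes after values were seen. All members are named, and per other list up to 3 called genes with the smallest adjusted p. Batch numbers in the labels pair the libraries (correlation of deviations within pairs 0.185, 0.126, 0.264 and 0.0796), and the labels call the batches independent. Replicates differed beyond sampling noise (chi-square per degree of freedom 9.21 to 65.1). The 20 alternatives were other scaling and filters, DESeq2 1.42.0, limma 3.58.1 on the signal (pseudocount 0.1 or 1), the batch block, and libraries or batches left out.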

Additional observations from a re-analysis of the deposited data

Results flagged for a closer look

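Single libraries stood apart from the other 3 of their group for 6 values, of 80 member and group combinations examined (by Dixon's ratio at its 95% critical value, which chance passes in about 1 of 20 groups). Mono-culture library 1 was high for IL6R (451 CPM, others 319.9 to 331), JAK1 (216 CPM, others 152 to 154) and STAT3 (306 CPM, others 239.9 to 245). Mono-culture library 2 was high for IL2RG (7.55 CPM, others 3.88 to 4.32), for SOCS1 (2.11 CPM, others 0.656 to 0.890) and for LIFR (0.0555 CPM from 1 count, others 0).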

How the results depend on the processing

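Of the 15 called members, IL3RA, IL4R, IL6R, IL7R, LIFR, JAK2 and SOCS2 kept their call in all 20 alternative runs, and SOCS1 in the 17 that tested it. LIFR, SOCS2 and SOCS1 entered the main test only through the group where each was higher, so their kept calls follow in part from the filter. No called member changed direction. Members called numbered 15, and 11 to 15 with 1 library left out (7 to 10 higher, 4 to 6 lower). Without both libraries of batch 3 there were 9 called, 6 higher and 3 lower. On the deposited signal 3 members were lower with either pseudocount, instead of 5. Of the others, IL21R lost its call and SOCS1 was too low there to be tested. With the batch as a replicate block 17 were called, adding IL13RA1 and IL16, and no other member's call changed. Counts of all genes and of the other pathway genes stayed within 1.5 times of the main counts in all runs. At 17037481 to 33363972 counts per library, IL6, IL15, OSM, LIF, IL2RA, IL15RA and OSMR were too low for the main test. With no expression filter, and with DESeq2, 6 members were lower instead of 5, and the added call fell on a gene among these. The cause of lost calls was not tested.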
